A study of Homo sapiens with 6 samples.

Results

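Integrins and the focal adhesion adaptors that tie them to actin were followed in CAL-27, an established cell line of keratinocyte type that was derived from a tongue carcinoma of squamous cells. The set held 32 genes chosen by symbol, 12 integrin alpha subunits, 8 beta subunits and 12 adaptors and kinases, all of them found among the 22503 gene rows of the count table. Cells received DHA in 3 samples and the solvent DMSO in 3 samples for 48 h, and nothing else is named as differing between the groups. DHA was read as dihydroartemisinin, since the series concerns artemisinin derivatives, and the sources used here give no dose. Nothing in the labels says that the 3 samples of a group are separate cultures. The p-values therefore measure only how these samples of 1 cell line varied, which may be technical.

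Integrins are receptors made of 1 alpha and 1 beta subunit that hold a cell to its matrix. Talin and kindlin bind the beta tail and switch the receptor on, and vinculin, paxillin, zyxin and the complex of ILK with PINCH and parvin link it to actin, while the kinase FAK and its partner p130Cas pass the signal on. In keratinocytes the pair of ITGA6 with ITGB4 forms hemidesmosomes on laminin, ITGA3 with ITGB1 binds the same laminins, and ITGAV pairs with ITGB5, ITGB6 or ITGB8, of which the last 2 release latent TGF-beta.

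The libraries held 35983061 to 38120267 counts over genes in DHA and 35980670 to 37403613 in DMSO, and the members took 0.433% to 0.573% and 0.552% to 0.670% of them. Levels are given as CPM, counts relative to library totals scaled by TMM, and a level of 3 counts was 0.0797 to 0.0830 CPM in DHA and 0.0789 to 0.0827 CPM in DMSO. All 10 keratinocyte markers were tested, with 3 positive and 7 negative values, and edgeR called 1 of them, KRT6A, which was higher in DHA. The DESeq2 Wald test and the fit corrected for GC content and length also called KRT17 lower, which was at 717 ± 185 CPM in DHA and 1592 ± 827 CPM in DMSO. The summed level of the 10 was 4433 to 5159 CPM in DHA and 5812 to 7263 CPM in DMSO, with KRT5 at 1844 ± 158 CPM in DHA and 2326 ± 66.5 CPM in DMSO (SD, n = 3 each). The first principal component held 47.5% of the variance and separated the groups, with DHA 2 and DMSO 1 as its most distant libraries. Library composition also varied with exon length. Across 13138 genes with a length, the median log2 fold change of DHA over DMSO ran from 0.23 in the shortest decile to -0.18 in the longest. DHA 2 deviated from the DMSO mean by 0.46 in the shortest and -0.41 in the longest decile (median log2 CPM), and DHA 3 by -0.02 and 0.05. Of the 27 members tested, the median exon length was 7771 bases, against 4966 bases over all genes with a length. Beside the uncorrected values, those of an edgeR fit corrected for GC content and exon length are given for some members. A member printed without a corrected value may also have moved. With the correction, ITGB4, ITGAV and the paxillin gene PXN had log2 fold changes of -0.27, -0.47 and 0.33. Without it, these values were -0.36, -0.55 and 0.26. Counts of calls are those of the uncorrected edgeR fit unless another is named. Of all genes tested, the DESeq2 Wald test called 7.75% and the corrected edgeR fit 5.91%.

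Of the 32 members, 27 passed the filter on low counts. The quasi-likelihood test of edgeR, with Benjamini-Hochberg adjustment across the 14649 genes that passed the filter, called 2 of these 27 at an adjusted p under 0.05. Both were lower in DHA and 0 were higher, while 2.70% of all genes tested were called, 1.60% lower and 1.10% higher. They were ITGB8, the beta subunit of a receptor for latent TGF-beta, and ITGA4, an alpha subunit of receptors for fibronectin and VCAM. The other 25 did not pass, which does not show that they were equal between the groups. Groups did not overlap for 10 of the 27, with 7 lower and 3 higher in DHA, against 27.8% of all genes tested (13.5% lower and 14.3% higher). At an unadjusted p under 0.05 were 9 of the 27, 7 lower and 2 higher, against 20.3% of all genes (10.7% lower and 9.59% higher).

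**Figure D1:**
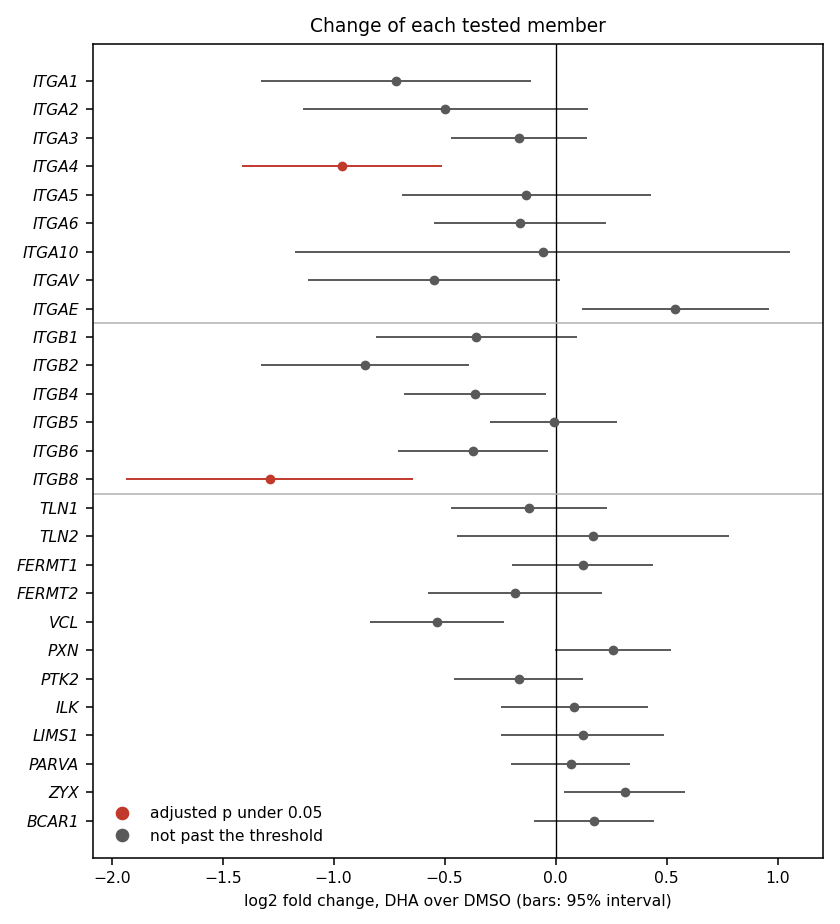
Log2 fold change of DHA over DMSO (horizontal axis) for the 27 tested members (vertical axis, grouped from top to bottom as alpha subunits, beta subunits, and adaptors and kinases), with the 95% interval of the edgeR fit. ITGB8 at -1.29 and ITGA4 at -0.96 passed the threshold, and 14 of the 15 subunits lay below 0 against 4 of the 12 adaptors and kinases.

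The integrin subunits and the adaptors differed in where their values lay. Of the 15 subunits tested 14 had a negative log2 fold change and the median was -0.36, whereas of the 12 adaptors and kinases 4 were negative and the median was 0.10. Over all genes tested the median was 0.00 and 49.7% were negative. The difference between subunits and adaptors was not tested. The median exon length was 6797 bases for the subunits and 8844 bases for the adaptors, and the part of length in their values was not tested. Taken relative to the median of the decile of genes of like length, the median was -0.34 for the subunits, 0.15 for the adaptors and -0.07 for all 27. In the corrected fit the medians were -0.33, 0.14 and -0.04, and 14 of the 15 subunits and 3 of the 12 adaptors were negative. Without a correction the median of the whole set was -0.16. That median pools 2 groups of opposite sign, whose uncorrected medians were -0.36 for the subunits and 0.10 for the adaptors. Single libraries moved with these values, and their part in them was not tested. DMSO 1 was the highest of the 6 libraries for 16 of the 27 members, and for 26.2% of all genes tested, while DHA 2 was the lowest for 14 of the 27 and for 27.3% of all genes. Without DMSO 1 the median log2 fold change of the 27 was -0.05, and without DHA 2 it was -0.08, against -0.16 with all libraries.

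**Figure D2:**
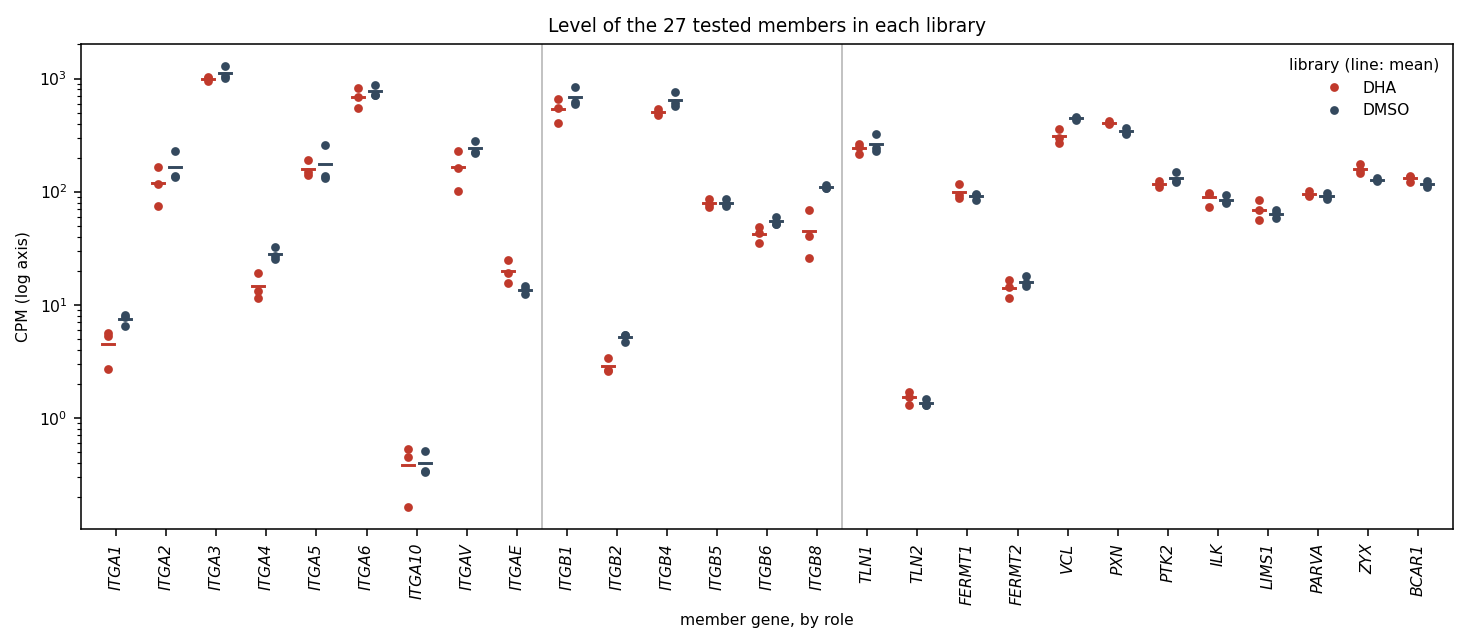
Level of each of the 27 tested members in CPM (vertical log axis), with 1 point per library and a line at the group mean, DHA left of DMSO. The 3 ITGB8 points in DHA sit between 25.7 and 68.7 CPM, all below the DMSO points at 108 to 113 CPM, and the ITGA4 points in DHA at 11.4 to 18.9 CPM are below those in DMSO at 25.6 to 32.3 CPM.

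ITGB8 had 40.9, 25.7 and 68.7 CPM in DHA 1, 2 and 3, against 113, 109 and 108 CPM in DMSO 1, 2 and 3. The DMSO libraries lay close together and the DHA libraries were spread widely, yet every one of them was below every DMSO library. ITGB8 fell to 45.1 ± 21.8 CPM in DHA, against 110.2 ± 2.77 CPM in DMSO (SD, n = 3 each), and its log2 fold change was -1.29 with an SE of 0.29 (edgeR adjusted p = 0.0496). The call stood at the edge of the threshold. It was lost without DHA 1 (adjusted p = 0.162), DMSO 1 (0.117), DMSO 2 (0.118) or DMSO 3 (0.0783), and remained without DHA 2 or DHA 3. It was also lost with unscaled library totals (0.0724) and above a mean of 5 CPM (0.0572). Its exons span 15156 bases, which puts it in the longest decile. With GC content and exon length corrected for, its log2 fold change was -1.13 ± 0.16 (edgeR adjusted p = 0.00817). The gene lies on chromosome 7 at 20329766 to 20415754 (GRCh38.p14). It overlaps the antisense gene ITGB8-AS1, whose level was 2.52 ± 0.802 CPM in DHA and 3.09 ± 0.461 CPM in DMSO. The sources used here do not say whether counting used the strand, so reads of the pair may be mixed.

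ITGA4 had 13.3, 11.4 and 18.9 CPM in DHA 1, 2 and 3, against 32.3, 25.6 and 27.1 CPM in DMSO 1, 2 and 3. As for ITGB8, DHA 2 was lowest and DHA 3 highest among the DHA libraries, and the groups did not overlap. It fell to 14.5 ± 3.88 CPM in DHA, against 28.3 ± 3.55 CPM in DMSO (SD, n = 3 each), and its log2 fold change was -0.96 with an SE of 0.20 (edgeR adjusted p = 0.0398). With 1 library left out at a time, only the fit without DHA 3 kept the call, and the adjusted p reached 0.159 without DHA 1, 0.101 without DMSO 1, 0.0909 without DMSO 2, 0.0748 without DMSO 3 and 0.0720 without DHA 2. With unscaled library totals it was 0.0550. After the correction for GC content and length the log2 fold change was -0.92 ± 0.15 (edgeR adjusted p = 0.0112). The gene lies on chromosome 2 at 181457205 to 181538940 and overlaps CERKL, which reached at most 30 counts in a library.

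The promoters of the 2 members that passed the test are shown as sequence context for the called genes. Both are 300 bases around a transcript start on the plus strand, from RefSeq on GRCh38.p14, at chr7:20330650-20330949 for ITGB8 and chr2:181457136-181457435 for ITGA4. Capitals mark GC boxes, the letters GGGCGG on either strand.
ITGB8: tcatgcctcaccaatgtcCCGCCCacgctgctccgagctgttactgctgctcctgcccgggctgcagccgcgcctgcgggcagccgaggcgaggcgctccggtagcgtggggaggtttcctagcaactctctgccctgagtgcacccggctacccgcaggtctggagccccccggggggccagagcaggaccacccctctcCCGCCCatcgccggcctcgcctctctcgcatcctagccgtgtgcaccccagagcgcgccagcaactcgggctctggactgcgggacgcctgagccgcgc
ITGA4: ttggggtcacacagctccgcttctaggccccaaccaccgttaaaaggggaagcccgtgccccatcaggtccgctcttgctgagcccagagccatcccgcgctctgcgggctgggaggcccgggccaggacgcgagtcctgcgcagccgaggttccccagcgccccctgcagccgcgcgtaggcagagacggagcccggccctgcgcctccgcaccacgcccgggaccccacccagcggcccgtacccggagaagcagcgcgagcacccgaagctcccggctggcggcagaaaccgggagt
The ITGB8 window held 2 GC boxes, both on the minus strand, and the ITGA4 window held 0. The GC content was 71.7% and 72.3%, against a median of 58.7% over the 35116 promoters of the RefSeq table and 68.2% over those of the members. The table held 36 promoters of 23 members, some with more than 1. Of these 36 promoters 20 had a GC box (55.6%), as did 45.0% of all promoters. The AP-1 motif TGANTCA was in 3 of the 36 (8.33%) and in 7.71% of all promoters, and the TEAD motif GGAATG in 5 of the 36 (13.9%) and in 14.0% of all promoters, with both strands searched. A CArG box was in 1 of the 36, of ITGB6, and in 1.29% of all promoters. Neither window printed here held an AP-1, TEAD or CArG match, and the printed motifs do not overlap. These are matches of letters in a window and show no binding.

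The other alpha subunits ranged from abundant to rare. ITGA3 and ITGA6, the laminin-binding subunits of epithelia, were the most abundant alpha subunits per length, at 434 ± 59.5 and 455 ± 136 TPM in DHA and 524 ± 67.1 and 541 ± 64.0 TPM in DMSO (SD, n = 3 each). Neither passed the test. ITGA6 had 689, 545 and 832 CPM in DHA 1, 2 and 3 and 883, 718 and 709 CPM in DMSO 1, 2 and 3, so the groups overlapped. Its log2 fold change was -0.16 with a 95% interval of -0.55 to 0.22 (edgeR adjusted p = 0.614). For ITGA3 it was -0.17 with an interval of -0.47 to 0.14 (edgeR adjusted p = 0.504), and -0.02 in the corrected fit.

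ITGAV, the shared partner of ITGB5, ITGB6 and ITGB8, had 163, 102 and 231 CPM in DHA 1, 2 and 3 and 279.6, 221 and 223 CPM in DMSO 1, 2 and 3. DHA 3 lay within the DMSO range and DHA 2 was lowest. The log2 fold change was -0.55 ± 0.25 (SE, edgeR adjusted p = 0.259), and -0.86 without DHA 3 (adjusted p = 0.0468). ITGA2, a collagen receptor subunit, had 116, 74.9 and 164 CPM in DHA 1, 2 and 3 and 227, 138 and 134 CPM in DMSO 1, 2 and 3 (edgeR adjusted p = 0.346). ITGA5, the alpha subunit of the classical fibronectin receptor, was at 159.9 ± 27.4 CPM in DHA and 175 ± 70.5 CPM in DMSO. Its sign turned on DMSO 1, which stood at 257 CPM, and the log2 fold change was -0.13 with it and 0.25 without it.

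ITGA1, a second collagen receptor subunit, was low, with 5.61, 2.71 and 5.29 CPM in DHA 1, 2 and 3 and 8.19, 7.74 and 6.47 CPM in DMSO 1, 2 and 3. The groups did not overlap and the gene missed the threshold (log2 fold change -0.72 ± 0.27, edgeR adjusted p = 0.186, and -0.49 in the corrected fit). It overlaps PELO, and the deposited description of its row is that of PELO, so its count is uncertain. PELO has a row of its own, at 61.2 ± 2.71 CPM in DHA and 57.4 ± 0.706 CPM in DMSO. ITGAE, which pairs with ITGB7 to bind E-cadherin on lymphocytes, was the 1 subunit with a positive value. It had 19.0, 24.7 and 15.4 CPM in DHA 1, 2 and 3 and 12.4, 13.7 and 14.6 CPM in DMSO 1, 2 and 3, with no overlap and an adjusted p of 0.159 by edgeR. Its locus overlaps P2RX5 and HASPIN. ITGA10, a collagen receptor subunit of cartilage, was tested at 0.380 ± 0.192 CPM in DHA and 0.395 ± 0.103 CPM in DMSO.

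Among beta subunits, ITGB1 and ITGB4 made up 86.6% to 87.2% of the summed TPM of the 8 beta subunits in DHA and 85.9% to 88.0% in DMSO. ITGB1, the partner of most alpha subunits, had 550.2, 402 and 665 CPM in DHA 1, 2 and 3 and 846, 600.1 and 625 CPM in DMSO 1, 2 and 3. The groups overlapped, with DHA 3 above 2 of the DMSO libraries, and the log2 fold change was -0.36 with a 95% interval of -0.81 to 0.10 (edgeR adjusted p = 0.339). ITGB4, the hemidesmosome subunit, had 535, 503 and 477 CPM in DHA 1, 2 and 3 and 765, 613 and 570.2 CPM in DMSO 1, 2 and 3. All 3 DHA libraries lay below the DMSO libraries, but the gene missed the threshold (log2 fold change -0.36 ± 0.14, edgeR adjusted p = 0.197). It overlaps GALK1, which reached at most 571 counts in a library.

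ITGB6, an epithelial receptor subunit for latent TGF-beta like ITGB8, had 42.8, 35.3 and 48.3 CPM in DHA 1, 2 and 3 and 60.1, 52.3 and 51.4 CPM in DMSO 1, 2 and 3. The groups did not overlap, and the log2 fold change of -0.37 ± 0.15 was smaller in size than that of ITGB8 (edgeR adjusted p = 0.209). ITGB5, a vitronectin receptor subunit, was at 79.0 ± 6.36 CPM in DHA and 79.4 ± 6.14 CPM in DMSO, a log2 fold change of -0.01 with a 95% interval of -0.29 to 0.28. Its sign turned to 0.05 without DHA 3 and also without DMSO 1.

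ITGB2, the beta subunit of the leukocyte integrins, had 2.63, 3.35 and 2.59 CPM in DHA 1, 2 and 3 and 5.41, 5.43 and 4.71 CPM in DMSO 1, 2 and 3. It just missed the threshold in edgeR (log2 fold change -0.86 ± 0.21, adjusted p = 0.0655). The DESeq2 Wald test called it (adjusted p = 0.00576), as did edgeR after the correction for GC content and length (adjusted p = 0.0363). ITGB2-AS1 overlaps it and stood at 1.93 ± 0.917 CPM in DHA and 1.62 ± 0.258 CPM in DMSO. Of 8 leukocyte markers 6 were in the count table, and PTPRC and CD3E were not. The summed level of the 6 was 46.7 to 60.5 CPM in DHA and 53.8 to 55.1 CPM in DMSO. Most of it was CD68, which was at 37.9 ± 6.10 CPM in DHA and 39.4 ± 0.416 CPM in DMSO, and LYZ averaged 0.00886 CPM in DHA and 0.00918 CPM in DMSO. Of the 4 leukocyte markers tested, 2 had positive and 2 negative values. LCP1, an actin bundler of leukocytes, was at 9.56 ± 1.40 CPM in DHA and 7.18 ± 1.46 CPM in DMSO, and CORO1A, a coronin, at 2.57 ± 0.544 and 2.21 ± 0.567 CPM, and neither passed. CD14, a co-receptor for lipopolysaccharide, fell to 2.20 ± 0.479 CPM in DHA, against 5.64 ± 0.912 CPM in DMSO (edgeR adjusted p = 0.0240). Of 8 fibroblast markers 4 were tested, with 0 called by edgeR. Past an unadjusted p of 0.05 were 3 of the 4, against 20.3% of all genes, and the DESeq2 Wald test called 1 of them. The summed level of the 8 was 9.18 to 13.2 CPM in DHA and 13.6 to 23.5 CPM in DMSO, most of it COL1A1. PDGFRA was at 0 in all 3 DHA libraries and averaged 0.0351 ± 0.0607 CPM in DMSO. Its groups overlapped, and it failed the filter and was not tested. Endothelial markers summed to 15.6 to 18.8 CPM in DHA and 16.9 to 26.6 CPM in DMSO, mostly CDH5, and platelet markers to 0.189 to 0.399 and 0.394 to 0.595 CPM. The endothelial marker KDR and the platelet marker GP9 were not in the count table. The samples were of the cell line CAL-27, and the part of other cell types in these values was not tested. In bulk RNA, fewer cells of a kind and less RNA per cell cannot be told apart.

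Of the subunits that failed the filter, ITGA7, a laminin receptor subunit of muscle, had 3, 6 and 3 counts in DHA 1, 2 and 3 and 14, 4 and 4 counts in DMSO 1, 2 and 3. ITGA9, ITGA11 and ITGB3 had at most 2 counts in any library, and ITGB7 at most 9. None of these 5 was called when no filter was applied. ITGB3 is the beta subunit of the platelet integrin and of a second vitronectin receptor, and ITGB7 is a lymphocyte partner of ITGA4 and ITGAE. Among subunits of other lineages outside the set, ITGAM stood at 4.90 ± 1.79 CPM in DHA and 4.52 ± 0.997 CPM in DMSO, and the others stayed under 1 CPM in both groups. The platelet subunit ITGA2B was at 0.197 ± 0.152 CPM in DHA and 0.414 ± 0.110 CPM in DMSO.

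**Figure D3:**
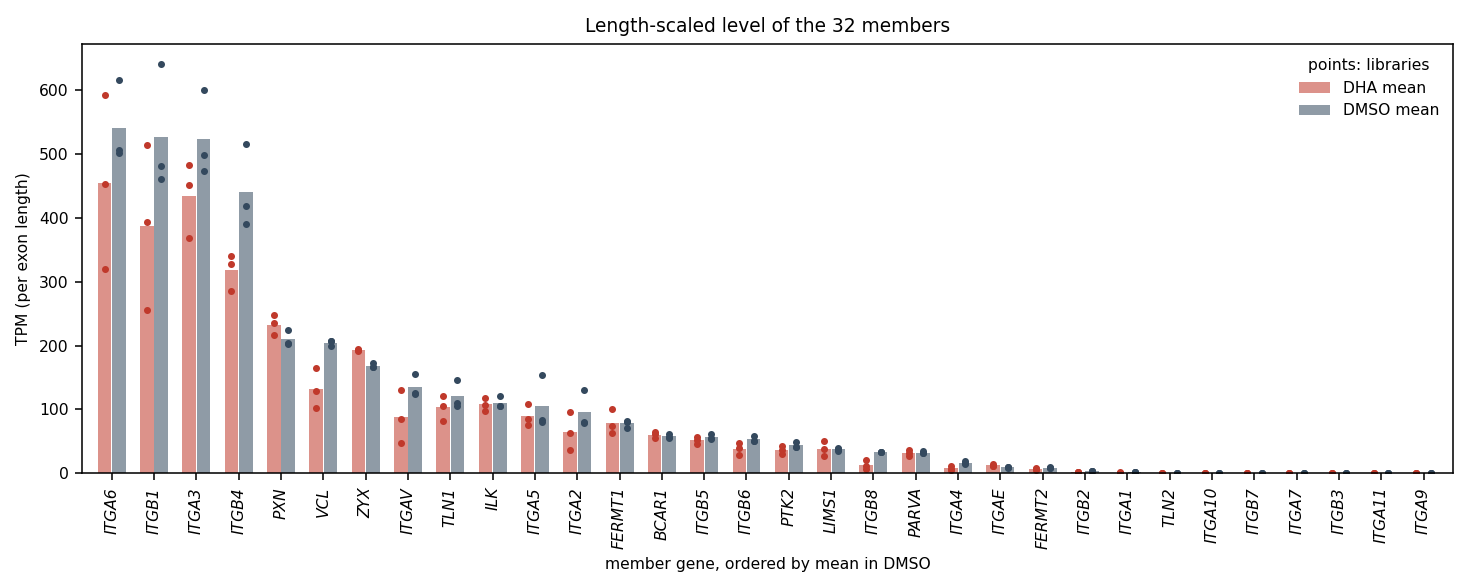
Length-scaled level of all 32 members in TPM (vertical axis from 0), ordered by the mean in DMSO, with bars at the group mean and 1 point per library, DHA left of DMSO. ITGA6, ITGB1, ITGA3 and ITGB4 stand above the other members in both groups, and ITGA9, ITGA11, ITGB3, ITGA7 and ITGB7 are near 0. The TPM are not TMM-scaled.

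The order of the levels per length put ITGA6, ITGB1, ITGA3 and ITGB4 first in DMSO, at 541 ± 64.0, 527 ± 98.6, 524 ± 67.1 and 441 ± 65.8 TPM (SD, n = 3 each). The SD ranges of neighbours in this order overlapped. In DHA the same 4 led, at 455 ± 136, 388 ± 129, 434 ± 59.5 and 317 ± 28.9 TPM. Next came the adaptors PXN, VCL and ZYX at 233 ± 15.9, 132 ± 31.4 and 193 ± 1.25 TPM in DHA and 209.9 ± 11.9, 204 ± 4.19 and 169 ± 4.03 TPM in DMSO. VCL and PXN were within their spread of each other in DMSO, whereas in DHA every VCL value was below every PXN value. ITGA3 and ITGA6 together made up 76.2% to 79.3% of the summed TPM of the alpha subunits in DHA and 72.1% to 76.2% in DMSO. ITGB8 stood at 13.0 ± 7.39 TPM in DHA, below ITGB6 at 38.6 ± 9.52 TPM and ITGB5 at 52.0 ± 5.20 TPM. In DMSO, ITGB8 was at 33.4 ± 0.566 TPM, ITGB6 at 53.5 ± 4.23 TPM and ITGB5 at 56.6 ± 3.95 TPM. TPM is not TMM-scaled, and its differences between the groups can depart from those in CPM. For ITGB5 the means were 79.0 CPM in DHA and 79.4 CPM in DMSO.

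**Figure D4:**
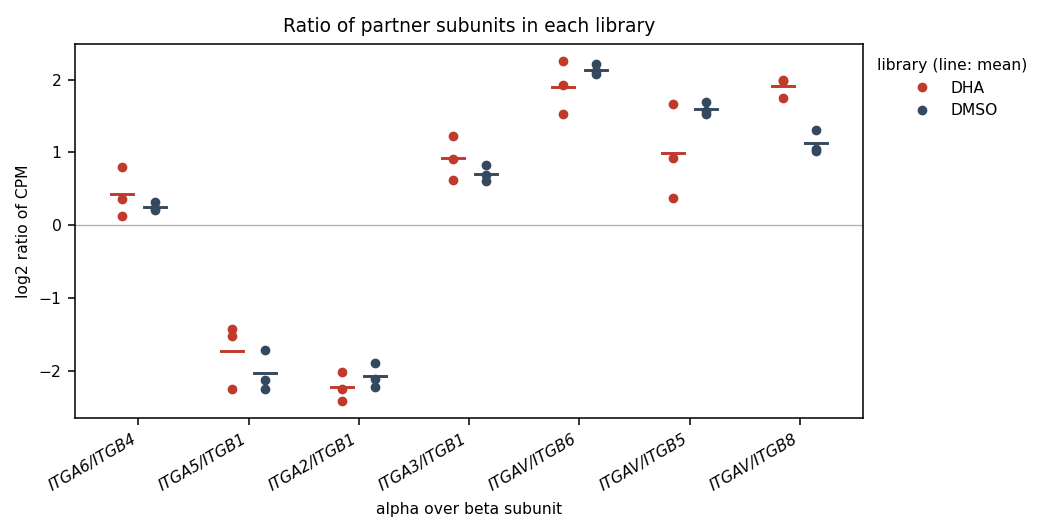
Log2 ratio of the CPM of an alpha subunit to that of a partner beta subunit (vertical axis) for 7 pairs, with 1 point per library and a line at the group mean, DHA left of DMSO. The ITGAV/ITGB8 ratio was 1.75 to 1.99 in DHA and 1.02 to 1.30 in DMSO, the 1 pair whose groups did not overlap.

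Ratios between partner subunits within a library do not depend on the scaling of library totals. ITGAV over ITGB8 averaged 1.91 ± 0.139 on the log2 scale in DHA and 1.12 ± 0.157 in DMSO (SD, n = 3 each), a difference of 0.79. The exact two-sided permutation test gave p = 0.1 (0.467 adjusted over the 7 ratios), which is the smallest p that 3 against 3 libraries allow, so no ratio could pass a threshold of 0.05. ITGAV over ITGB6 averaged 1.90 ± 0.366 in DHA and 2.14 ± 0.0727 in DMSO, and ITGAV over ITGB5 0.987 ± 0.646 and 1.60 ± 0.0914. ITGA6 over ITGB4, the hemidesmosome pair, averaged 0.428 ± 0.346 in DHA and 0.250 ± 0.0571 in DMSO, with overlapping groups. The pairs of ITGB1 with ITGA2, ITGA3 and ITGA5 also overlapped, with differences of DHA minus DMSO of -0.15, 0.21 and 0.30. For 6 of the 7 pairs the DHA libraries were more widely spread than the DMSO libraries, the exception being ITGAV/ITGB8.

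None of the 12 adaptors and kinases passed the threshold in edgeR. Past an unadjusted p of 0.05 were 2 of the 12, VCL lower and ZYX higher, against 20.3% of all genes tested. The DESeq2 Wald test called 1 of the 12, VCL, against 7.75% of all genes. VCL encodes vinculin, which binds talin and actin at adhesions under tension. It had 298, 269 and 355 CPM in DHA 1, 2 and 3 and 454, 433 and 448 CPM in DMSO 1, 2 and 3. The groups were far apart and the DMSO libraries close together, yet the adjusted p was 0.0732 by edgeR (log2 fold change -0.53 ± 0.13). It was 0.0104 in the DESeq2 Wald test, 0.0283 by edgeR without DHA 3 and 0.0244 after the correction for GC content and length, where the log2 fold change was -0.45. VCL overlaps AP3M1, which stood at 127 ± 15.2 CPM in DHA and 127 ± 5.03 CPM in DMSO.

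ZYX and PXN, the LIM domain adaptors zyxin and paxillin, had higher values in every DHA library than in any DMSO library. ZYX had 157, 174 and 145 CPM in DHA 1, 2 and 3 and 128, 131 and 125 CPM in DMSO 1, 2 and 3 (log2 fold change 0.31 ± 0.12, edgeR adjusted p = 0.194). PXN had 408, 420.2 and 397 CPM in DHA 1, 2 and 3 and 367, 331 and 326 CPM in DMSO 1, 2 and 3 (log2 fold change 0.26 ± 0.12, edgeR adjusted p = 0.247). Neither passed, also not after the correction for GC content and length, where the adjusted p was 0.0655 for ZYX and 0.0590 for PXN. BCAR1, the p130Cas scaffold, was at 131 ± 8.13 CPM in DHA and 116 ± 7.31 CPM in DMSO (edgeR adjusted p = 0.433), with a log2 fold change of 0.17, and 0.32 in the corrected fit (edgeR adjusted p = 0.0723).

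The talins, which bind beta tails, overlapped between the groups. TLN1 had 249, 217 and 263 CPM in DHA 1, 2 and 3 and 322, 241 and 229 CPM in DMSO 1, 2 and 3 (edgeR adjusted p = 0.679). Its sign depended on DMSO 1 and on the correction for GC content and length. The log2 fold change was -0.12 over all libraries, 0.04 without DMSO 1 and 0.00 after that correction. TLN2 was low, at 1.51 ± 0.201 CPM in DHA and 1.35 ± 0.0969 CPM in DMSO. The epithelial kindlin FERMT1 was at 99.0 ± 14.8 CPM in DHA and 91.0 ± 5.96 CPM in DMSO, and the widely expressed kindlin FERMT2 at 14.1 ± 2.56 and 16.0 ± 1.61 CPM. Neither kindlin passed (adjusted p = 0.641 and 0.569 by edgeR), and the log2 fold change of FERMT2 was -0.18, and -0.04 in the corrected fit. For TLN2 it was 0.17, and 0.33 in the corrected fit.

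PTK2, which encodes FAK, had 116, 110.0 and 125 CPM in DHA 1, 2 and 3 and 148, 122 and 125 CPM in DMSO 1, 2 and 3. Its log2 fold change was -0.17 with a 95% interval of -0.46 to 0.12 (edgeR adjusted p = 0.482), and -0.01 after the correction for GC content and length. The groups overlapped for the 3 genes of the ILK complex. ILK, the pseudokinase, was at 89.0 ± 13.3 CPM in DHA and 83.9 ± 7.60 CPM in DMSO. LIMS1, which encodes PINCH, was at 69.2 ± 14.0 and 63.6 ± 5.40 CPM, and the parvin gene PARVA at 95.6 ± 4.58 and 91.2 ± 5.35 CPM. Their 95% intervals of the log2 fold change ran from -0.25 to 0.42, from -0.24 to 0.49 and from -0.20 to 0.34. In the corrected fit the log2 fold changes were 0.01 for ILK, 0.20 for LIMS1 and 0.22 for PARVA, none of them called. LIMS1 has the near copies LIMS3 and LIMS4, with at most 1 and 54 counts in a library, and ILK overlaps TAF10, so these counts are uncertain.

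Further genes of the adhesion pathway were read in 12 lists, none of which had a call in the higher direction in the uncorrected edgeR fit. The DESeq2 Wald test called CSRP1, an actin linker, and CAPN2, a protease that cuts talin, higher in DHA, and the corrected edgeR fit called these and the small GTPases RAP1B and RAB21 higher. In the uncorrected fit 3 of 20 tested actin linkers were called, all lower, against 1.60% of all genes called lower, and the list median was -0.31. TNS4, a tensin of epithelia that binds beta tails, fell to 57.0 ± 1.59 CPM in DHA, against 103 ± 11.6 CPM in DMSO (log2 fold change -0.86 ± 0.13, edgeR adjusted p = 0.0159). SORBS2, an adaptor of the vinexin family, fell by 0.85 and FLNC, a filamin of muscle, by 1.14 on the log2 scale, and limma-voom did not call FLNC. ACTN1, an actin crosslinker that binds vinculin, was at 276 ± 16.2 CPM in DHA and 346 ± 27.7 CPM in DMSO and did not pass. In the actomyosin list 2 of 20 were called lower, against the same 1.60%, with a list median of -0.05. They were TPM1, a tropomyosin, which fell to 4.03 ± 0.330 CPM in DHA, against 10.3 ± 2.66 CPM in DMSO, and MYL9, a myosin light chain, with 3.07 ± 0.749 and 6.61 ± 0.813 CPM. Both genes were low in these cells.

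**Figure D5:**
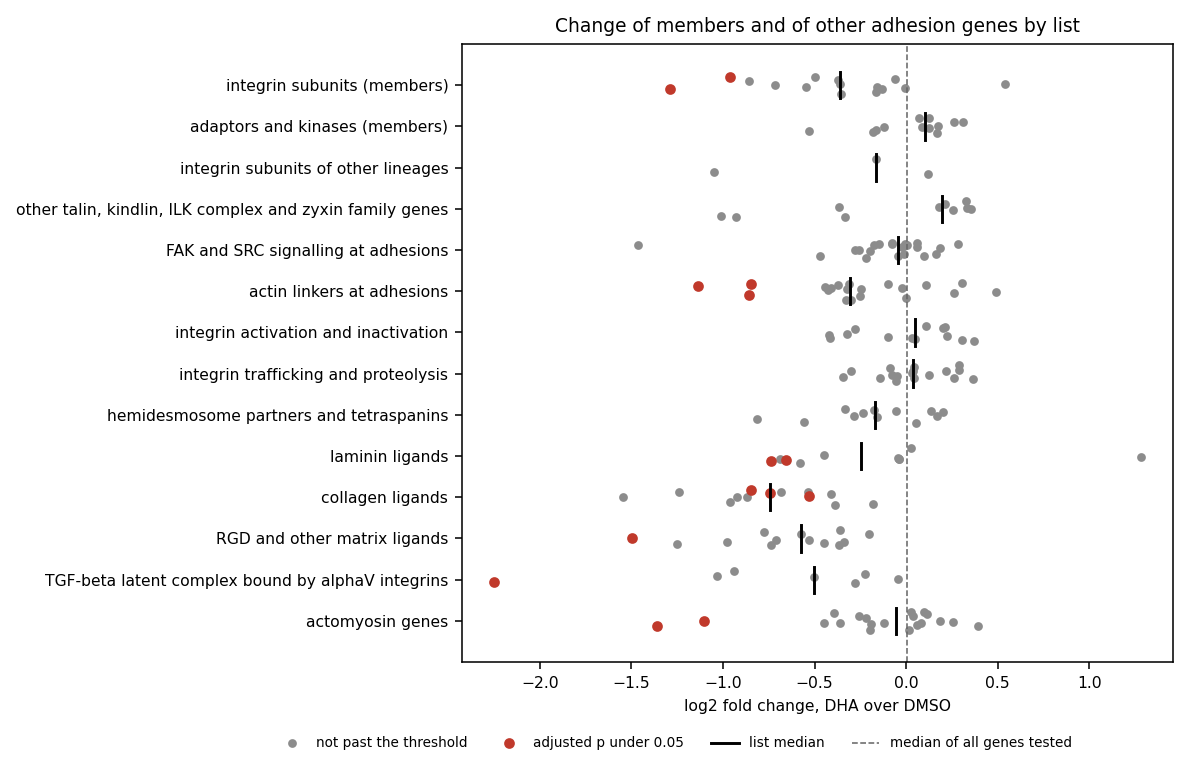
Log2 fold change of DHA over DMSO (horizontal axis) for the tested genes of the members, split into subunits and adaptors, and of 12 further adhesion lists, with a bar at each list median and a dashed line at the median of all genes tested. Genes called in the uncorrected edgeR fit all lie on the negative side, and the medians of the collagen, RGD and TGF-beta lists are -0.74, -0.57 and -0.51.

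As background for the matrix ligands of integrins, edgeR called 1.60% of all genes lower, and 49.7% of all genes had a negative value. Collagens were called in 3 of 13 tested genes and all 13 values were negative (median -0.74), and RGD and other matrix ligands in 1 of 13, again with 13 negative values (median -0.57). THBS1, a thrombospondin that binds integrins and activates TGF-beta, fell to 201 ± 36.8 CPM in DHA, against 568 ± 187 CPM in DMSO (log2 fold change -1.50 ± 0.25, edgeR adjusted p = 0.0193). The basement membrane collagen COL4A5 fell by 0.85, and COL4A1 and COL4A2 by 0.74 and 0.53 on the log2 scale. The DESeq2 Wald test called 8 of the 13 collagens and 4 of the 13 RGD and other ligands, all lower. That test called 7.75% of all genes, with 682 of the 14649 lower. The corrected edgeR fit called 3 of the 13 collagens and 3 of the 13 RGD and other ligands, all lower. Of all genes it called 5.91%, with 505 of the 14649 lower. By limma-voom 3 of the 13 collagens and 1 of the 13 RGD and other ligands were called, all lower, against 2.49% of all genes. The call of COL4A2 was lost after the correction for GC content and length. Of 10 laminins edgeR called 2 lower, LAMA5 and LAMB1, with log2 fold changes of -0.74 and -0.66. The DESeq2 Wald test added LAMB2, and the corrected edgeR fit added LAMB2 and LAMC1, all lower. LAMA3 and LAMB3, chains of a laminin that hemidesmosomes bind, were not called, with log2 fold changes of -0.04 each. In the latent TGF-beta list edgeR called 1 of 7. The DESeq2 Wald test and the corrected fit called 2, with LTBP2, of the latent TGF-beta binding protein family, as the second. The first was TGFB2, a TGF-beta ligand, which fell to 3.65 ± 2.06 CPM in DHA, against 17.3 ± 2.93 CPM in DMSO.

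The remaining lists gave 0 calls in the uncorrected edgeR fit. These were the other talin, kindlin, ILK and zyxin family genes (10 tested, median 0.19), FAK and SRC signalling (21, -0.04), integrin activation and inactivation (13, 0.05), integrin trafficking and proteolysis (17, 0.04), and hemidesmosome partners and tetraspanins (12, -0.17). Subunits of other lineages (3 tested, median -0.16) gave none either. In this order 1, 2, 3, 2, 3 and 0 genes of these 6 lists were past an unadjusted p of 0.05, as were 20.3% of all genes tested. In the same order the DESeq2 Wald test called 0, 0, 1, 1, 2 and 0, against 7.75% of all genes. These were CD47, CAPN2, DST and CD9. The corrected edgeR fit called 0, 0, 1, 2, 2 and 0, against 5.91% of all genes. Of these RAP1B, RAB21 and CAPN2 were higher and DST and CD9 lower in DHA. In the last but one, the plakin gene DST was at 305 ± 85.5 CPM in DHA and 536 ± 64.5 CPM in DMSO, with an adjusted p of 0.0653 by edgeR, and COL17A1, a hemidesmosome collagen, at 925 ± 66.3 and 1045 ± 243 CPM. The focal adhesion pathway of KEGG, as annotated in the deposited table and read after the data were seen, held 132 tested genes beside the members. Of these 10 were lower and 0 higher (7.58% called, against 2.70% of all genes tested), and the median was -0.09. The ECM-receptor pathway held 39 such genes, with 6 lower and 0 higher (15.4% called, against the same 2.70%) and a median of -0.53. Among the called genes of the first was VAV3, a guanine nucleotide exchange factor, which fell by 1.49 on the log2 scale, and PPP1R12B, a myosin phosphatase subunit, by 1.12. The other called genes of both pathways were already counted in the lists above. The shares called in these pathways are therefore not independent of those lists.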

How the data were processed

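Total RNA of 6 CAL-27 samples was sequenced. Per the submitters' processing notes, fastp, HISAT2, HTSeq, R 3.2.0 and GRCh38 were used, with no settings or roles stated. The authors deposited raw counts for each gene in 1 table, with 1 column per library, and 0 per-sample columns were left unused. Genes were kept by filterByExpr (minimum count 10), scaled by TMM and tested with edgeR 4.0.16's quasi-likelihood F test, two-sided (R 4.3.3), on all 6 libraries, with Benjamini-Hochberg adjustment over all genes and a threshold of 0.05. SEs were derived from the log2 fold change and F. The common biological coefficient of variation was 18.5%. TPM here divides counts by the exon length of GENCODE 29 genes matched by symbol, which 17207 rows had, and is not TMM-scaled. Coordinates and promoters are RefSeq's on GRCh38.p14. Principal components used log2 CPM with a prior count of 2. Alternatives were other scalings, omitting the filter, a mean CPM of at least 5, blocking on replicate number, DESeq2 1.42.0, limma-voom 3.58.1 and each library left out. A correction for GC content and exon length, by natural splines per library entered as an offset, was added after the data were seen. The members and the lists were chosen with earlier results of these data known. Named genes were all 32 members and, of each further list, up to 6 called genes by absolute fold change, with the 2 of highest mean CPM allowed for a list with no call. Genes beyond that rule (ACTN1, DST, COL17A1, LAMA3, LAMB3, ITGAM, ITGA2B, VAV3, PPP1R12B, CSRP1, CAPN2, CD47, CD9, RAP1B, RAB21, LAMB2, LAMC1, LTBP2 and the markers and overlapping genes) were chosen after their values were seen. The edgeR script was tested on simulated data. No 2 libraries of a group agreed within sampling noise, the closest pair being DMSO 2 and DMSO 3 whose chi-square averaged 6.61 over genes, and all 6 were kept.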

Additional observations from a re-analysis of the deposited data

How the results depend on the processing

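The 2 calls among the members, ITGA4 and ITGB8, stood with DESeq2 size factors, upper-quartile scaling, no filter and limma-voom. With unscaled library totals 0 members were called (adjusted p = 0.0550 for ITGA4 and 0.0724 for ITGB8), and above a mean of 5 CPM 1 was, ITGA4, as ITGB8 had an adjusted p of 0.0572. The DESeq2 Wald test called 4 members and 1135 genes, the correction for GC content and length 4 members and 866 genes, against 2 members and 395 genes in edgeR, and with no filter 649 genes were called. Above a mean of 5 CPM 251 genes were called. With each library left out in turn, 0 to 4 members and 16 to 789 genes were called. The 4 were ITGA4, ITGAV, ITGB8 and VCL, without DHA 3, and none was called without DHA 1, DMSO 1, DMSO 2 or DMSO 3. The cause of these differences was not tested.

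Same-numbered DHA and DMSO samples deviated from their group means with correlations of 0.258, 0.119 and -0.040 over 14649 genes, so the numbers were not taken to pair the samples. With the replicate block 6 members (ITGA1, ITGA4, ITGAV, ITGB2, ITGB8 and VCL) and 1272 genes were called, and with the block and the correction together 6 members and 1830 genes, with ITGAE higher and ITGA1 not called. DHA 3 and DMSO 3 did not correlate best with their own number.

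Signs turned for members near 0 that no fit called. Without DHA 3 ITGA10 was at 0.31, ITGB5 at 0.0543 and LIMS1 at -0.0285. Without DMSO 1 ITGA5 was at 0.25, ITGA10 at 0.17, ITGB5 at 0.0539 and TLN1 at 0.0439. After the correction TLN1 was at 0.0018, and at 0.0019 with the block. Over the fits that left out a library, the log2 fold change ranged from -1.72 to -1.01 for ITGB8, from -1.19 to -0.82 for ITGA4, from -0.36 to 0.31 for ITGA10, from -0.30 to 0.25 for ITGA5, from -0.0676 to 0.0543 for ITGB5, from -0.21 to 0.0439 for TLN1 and from -0.0285 to 0.25 for LIMS1. The 5 members that failed the filter had at most 14 counts in a library.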
